A study of Mus musculus with 4 samples.

Results

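Across the cells in and around mouse collecting lymphatic vessels, 10 chemokine genes were followed whose products draw monocytes, neutrophils, eosinophils and other leukocytes into tissue. The 10 genes, Ccl2, Ccl7, Ccl8, Ccl3, Ccl4, Ccl24, Cxcl1, Cxcl2, Pf4 and Cx3cl1, were taken by symbol from the 32285 genes measured, and each matched 1 gene row. The tissue came from 4 male and 4 female C57BL/6J mice of 12 to 14 weeks, with no genetic change or treatment named in the labels. For each mouse, vessels from 4 body regions were pooled and digested at 37 °C in 2 steps of 30 min, first with papain and then with papain, collagenase A and dispase II. The labels describe 1 gene expression library for the males and 1 for the females, with the mice marked by multiplexing oligos.

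After filtering, 22860 cells were analysed. Their barcodes carry 8 suffixes, which neither the labels nor the files tie to a mouse or a sex, so the cells were treated as 1 pooled sample and no test across mice was run. The level of a gene in a class of cells is its unique molecular identifiers (UMIs) summed over the class, per 1000000 UMIs of all genes (CPM), with an exact Poisson 95% interval. Intervals cover counting error only. Levels in the 8 suffixes are given as the lowest, the median and the highest, and all 44 barcode sequences that recurred did so between suffixes 1 to 4 and suffixes 5 to 8, none within either set.

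Cells were assigned to classes by counts of canonical marker genes. Class names below stand for cells that passed such a gate, and not for an annotation by the authors. The gate held 5930 macrophages, of which 4638 carried at least 2 UMIs of Cd209d and Cd209f together (Cd209-positive below), 888 carried 0 (Cd209-negative) and 404 carried 1. It also held 69 monocytes, 657 dendritic cells, 8702 fibroblasts, 1638 mural cells (smooth muscle and pericytes), 517 lymphatic and 283 blood endothelial cells, 704 mesothelial cells and smaller immune, Schwann and epithelial classes, while 2744 cells (12.0%) stayed unassigned. Among the markers that set the macrophage gate, and so as a description of it, Mrc1, a mannose receptor, was detected in 99.9% of Cd209-positive and 98.5% of Cd209-negative macrophages, and Adgre1, which encodes F4/80, in 87.4% and 84.8%.

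Chemokines are small secreted proteins that bind G protein-coupled receptors on leukocytes and guide their migration. CCL2, CCL7 and CCL8 are monocyte attractants, with CCR2 as a receptor of CCL2 and CCL7. CCL3 and CCL4 attract monocytes and lymphocytes, CCL3 with CCR1 as a receptor, and CCL24 acts on eosinophils through CCR3. CXCL1 and CXCL2 recruit neutrophils through CXCR2, PF4 is best known as a platelet granule protein, and CX3CL1 is a membrane-anchored ligand of CX3CR1. Several of these genes are known to be induced rapidly by inflammatory signals.

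The genes lie in few genomic clusters (GRCm38, GENCODE annotation, all protein coding). Ccl2 (chr11:82035571-82037453, plus strand), Ccl7 (chr11:82045712-82047525, plus) and Ccl8 (chr11:82115185-82116799, plus) are neighbours on chromosome 11. Ccl3 (chr11:83647844-83649355, minus) and Ccl4 (chr11:83662584-83664683, plus) form a second pair on that chromosome. Pf4 (chr5:90772435-90773383, plus), Cxcl1 (chr5:90891241-90893115, plus) and Cxcl2 (chr5:90903871-90905938, plus) lie together on chromosome 5. Ccl24 (chr5:135569937-135573049, minus) lies apart on the same chromosome and Cx3cl1 (chr8:94772009-94782427, plus) on chromosome 8.

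Promoter sequences were at hand for 6 of the 10 genes in RefSeq (GRCm38.p6). The 250 bases before RefSeq's gene start, which for Cxcl1 and Cxcl2 lies downstream of the GENCODE start given above, are printed for the 3 genes of the chromosome 5 cluster, because Cxcl1 led in fibroblasts and Cxcl2 and Pf4 in macrophages. Capitals mark GGGAATTTCC, a letter string of the kind that NF-κB proteins bind. It is the match to a looser pattern, GGG followed by any 5 bases and CC, that the Cxcl1 and Cxcl2 windows share, and it was then searched on both strands in all promoters.
Cxcl1, chr5:90890995-90891244, plus strand: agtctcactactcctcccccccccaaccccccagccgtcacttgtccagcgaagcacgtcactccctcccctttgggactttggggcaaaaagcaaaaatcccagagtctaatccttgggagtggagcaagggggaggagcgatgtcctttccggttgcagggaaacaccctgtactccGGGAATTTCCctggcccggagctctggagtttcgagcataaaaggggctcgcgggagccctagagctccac
Cxcl2, chr5:90903649-90903898, plus strand: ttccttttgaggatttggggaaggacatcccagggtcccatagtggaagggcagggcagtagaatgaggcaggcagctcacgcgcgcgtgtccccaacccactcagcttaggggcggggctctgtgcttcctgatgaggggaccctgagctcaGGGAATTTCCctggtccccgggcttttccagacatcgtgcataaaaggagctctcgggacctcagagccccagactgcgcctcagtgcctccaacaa
Pf4, chr5:90772185-90772434, plus strand: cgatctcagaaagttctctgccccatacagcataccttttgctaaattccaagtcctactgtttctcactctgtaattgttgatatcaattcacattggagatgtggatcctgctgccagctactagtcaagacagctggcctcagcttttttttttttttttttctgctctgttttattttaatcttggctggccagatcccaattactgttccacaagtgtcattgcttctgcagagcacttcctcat
The string began 71 bases before RefSeq's start in Cxcl1 and 97 bases before it in Cxcl2. In windows that run on to 50 bases after the start, 29 of 32851 promoters in the table held it (0.0883%). The Pf4, Ccl3, Ccl8 and Cx3cl1 windows did not hold these letters, which says nothing about binding of the factor. The looser pattern, which every GGGAATTTCC also matches, was found in 50.8% of all promoters.

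Each chemokine had its own distribution over source cells. Of all UMIs of the gene, macrophages held 91.4% for Pf4, 89.3% for Ccl24, 86.4% for Ccl8, 78.4% for Ccl3, 73.9% for Ccl4 and 71.4% for Cxcl2, while making up 25.9% of cells. Fibroblasts, 38.1% of cells, held 78.7% of Cxcl1, 61.6% of Ccl7 and 57.1% of Ccl2 UMIs. Cx3cl1 was rare, with 1213 UMIs in all, of which 44.3% fell in unassigned cells. Over the classes compared, with all macrophages as 1 class, 4 of the 10 genes were highest in macrophages (Ccl8, Ccl24, Cxcl2 and Pf4). In a fibroblast class 1 was highest (Cxcl1). No share over all genes is set beside these counts, so they only describe the 10 genes. The place of Cxcl2 was close, at 4864 CPM in macrophages and 4652 CPM in monocytes (1512 to 7942 over suffixes).

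**Figure D1:**
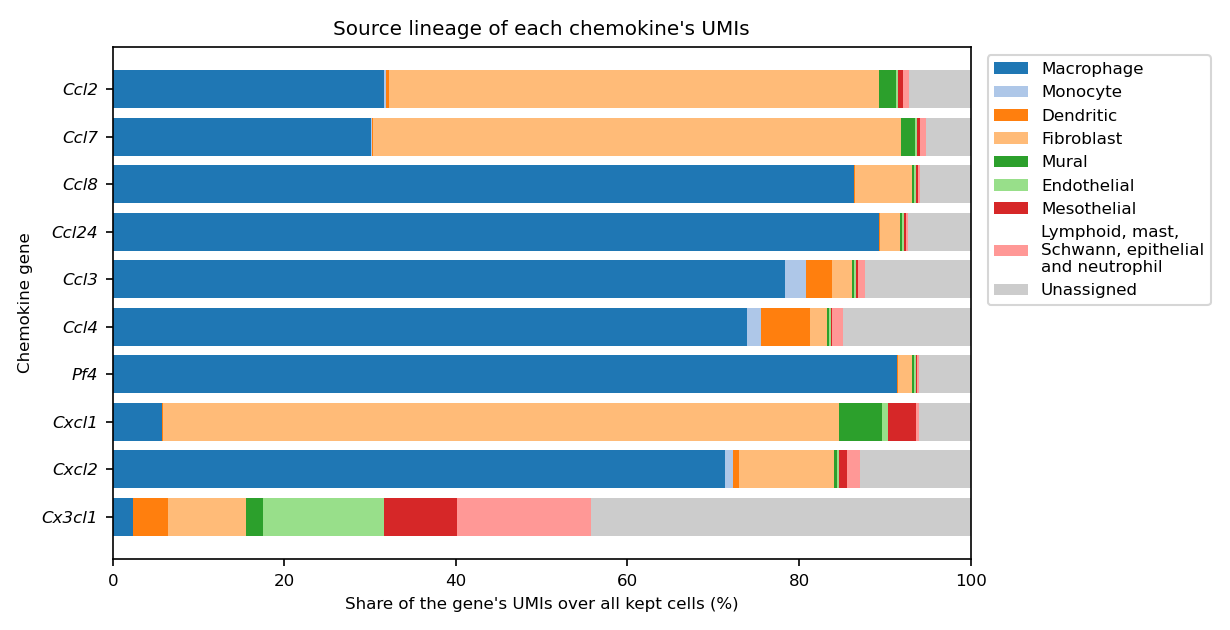
Share of each chemokine's UMIs (x axis, percent) held by each gated lineage, for the 10 genes (rows); colours mark lineages and grey marks unassigned cells. Macrophages hold over 70% of the bar for Ccl8, Ccl24, Ccl3, Ccl4, Pf4 and Cxcl2, and fibroblasts hold 78.7% of Cxcl1.

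**Figure D2:**
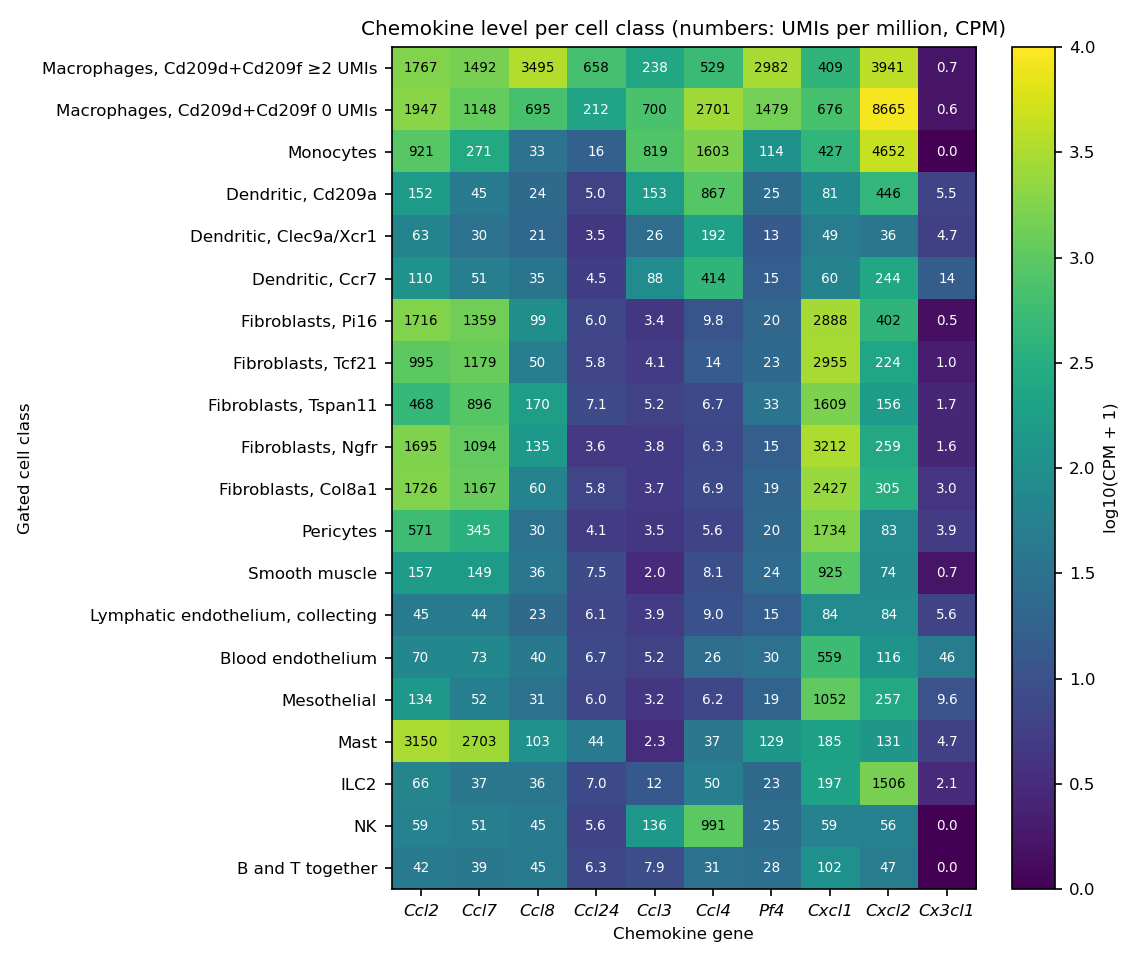
Level of each chemokine (columns) in each gated class (rows); numbers are CPM and colour is log10(CPM + 1). Ccl8, Ccl24 and Pf4 peak in Cd209-positive macrophages, Ccl4 and Cxcl2 in Cd209-negative macrophages, Cxcl1 in fibroblasts, Ccl2 and Ccl7 in mast cells, with B and T cells together (bottom row) as the background.

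B and T cells together (549 cells, median 4736 UMIs) were taken as a gauge of free RNA for these genes. There the levels were 102 CPM for Cxcl1, 47.5 for Cxcl2, 44.7 for Ccl8, 41.7 for Ccl2, 38.7 for Ccl7, 30.8 for Ccl4, 27.5 for Pf4, 7.86 for Ccl3 and 6.35 for Ccl24. No Cx3cl1 UMI was found, which allows up to 0.907 CPM. A class at or under these levels is read as background. The levels were not corrected for depth, and the same free RNA is a smaller share of the UMIs of a deeper cell. The gauge itself is uneven, since 1 T cell held 99 of the 338 Cxcl1 UMIs, 1 held 47 of the 148 Ccl8 UMIs and 1 held 33 of the 91 Pf4 UMIs. For Ccl4 and Ccl3 it lay above other classes, such as Pi16 fibroblasts (9.83 and 3.41 CPM) and collecting lymphatic endothelium (9.02 and 3.89 CPM). It may thus stand above free RNA for these 2 genes. Nkg7, a natural killer cell marker, was detected in 55.5% of the T cells, and whether B and T cells make these transcripts was not tested.

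Macrophages were parted by Cd209d and Cd209f, 2 C-type lectin genes of the DC-SIGN family that mark a subset of resident tissue macrophages in mice. A gene is called higher or lower at a ratio of at least 2 (or at most 0.5) whose exact binomial 95% interval lies on the same side of 1, among genes at 10 CPM or more in either class. Of the 9 chemokines that reached this level, 3 were called higher in Cd209-positive macrophages and 3 lower, against backgrounds of 4.18% of 8255 genes called higher and 5.22% called lower. Cells of the Cd209-positive class had a median of 7226 UMIs and those of the Cd209-negative class 6776.5.

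Ccl8 differed most in the upward direction. Cd209-positive macrophages held Ccl8 at 3495 CPM (3475 to 3514) and Cd209-negative ones at 695 CPM (675 to 715), a ratio of 5.03 (4.88 to 5.18). Over suffixes Ccl8 ran from 1873 through a median of 3433 to 4198 CPM in Cd209-positive macrophages, and from 151 through 563 to 1491 CPM in Cd209-negative ones. The ranges did not overlap, and the ratio pointed the same way in 8 of 8 suffixes. In the Cd209-negative class all of suffixes 1 to 4 lay lower, at 151 to 510 CPM, than all of suffixes 5 to 8, at 616 to 1491 CPM. The labels do not say what parts these 2 sets of suffixes, and the difference was not tested.

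Ccl24, the eosinophil attractant, stood at 658 CPM (649 to 666) in Cd209-positive and 212 CPM (201 to 224) in Cd209-negative macrophages, a ratio of 3.10 (2.94 to 3.28). Its suffix values were 507, 661 and 838 CPM (lowest, median, highest) in Cd209-positive macrophages and 159, 206 and 285 CPM in Cd209-negative ones. The suffix ranges were fully separate. Pf4 stood at 2983 CPM (2964 to 3001) in Cd209-positive and 1479 CPM (1450 to 1509) in Cd209-negative macrophages, with suffix values of 2746, 2960 and 3456 CPM against 1088, 1486 and 1905 CPM. The Pf4 ratio of 2.02 (1.97 to 2.06) sat at the threshold: without suffix 2, 5 or 8 it was 1.98, 1.99 or 1.93 and was no longer called, although it was above 1 in 8 of 8 suffixes.

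Because Pf4 is a platelet gene, platelet genes were counted in the same cells. In Cd209-positive macrophages Ppbp had 59 UMIs, Itga2b 59, Treml1 6, Gp9 3, Gp6 1 and Gp1ba 0, beside 103157 UMIs of Pf4. Pf4 was detected in nearly all of these cells. With every cell thinned to 2000 UMIs, 96.8% of Cd209-positive and 73.5% of Cd209-negative macrophages had a Pf4 UMI, against 3.49% of B and T cells.

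Ccl4 and Ccl3 ran the other way. Ccl4 stood at 529 CPM (521 to 536) in Cd209-positive macrophages and 2701 CPM (2662 to 2741) in Cd209-negative ones, a ratio of 0.196 (0.192 to 0.200). Over suffixes Ccl4 was at 277, 626 and 886 CPM in Cd209-positive and at 905, 2887 and 3966 CPM in Cd209-negative macrophages (lowest, median, highest). Even the lowest suffix of the Cd209-negative class lay above the highest of the Cd209-positive class. Ccl3 stood at 238 CPM (233 to 243) in Cd209-positive and 700 CPM (680 to 721) in Cd209-negative macrophages, a ratio of 0.340 (0.328 to 0.352). Its suffix values were 96.7, 271 and 415 CPM against 274, 784 and 1045 CPM, so these ranges overlapped, but the Cd209-positive value was the lower in 8 of 8 suffixes.

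Cxcl2, the neutrophil attractant, was at 3941 CPM (3920 to 3961) in Cd209-positive and 8665 CPM (8594 to 8737) in Cd209-negative macrophages, a ratio of 0.455 (0.450 to 0.459). The suffix values were 2536, 3795 and 5792 CPM in the Cd209-positive class and 6651, 8356 and 11274 CPM in the Cd209-negative class, with no overlap. Its neighbour Cxcl1 was lower in Cd209-positive macrophages too, at 409 against 676 CPM, but its ratio of 0.605 (0.585 to 0.626) missed the 2-fold threshold. That direction held in 8 of 8 suffixes.

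The monocyte attractants Ccl2 and Ccl7 differed little. Ccl2 was at 1767 CPM in Cd209-positive and 1947 CPM in Cd209-negative macrophages (ratio 0.908, 0.890 to 0.925), and the order of the classes was split 4 to 4 over suffixes. Ccl7 was at 1492 and 1148 CPM (ratio 1.30, 1.27 to 1.33), higher in the Cd209-positive class in 7 of 8 suffixes. Cx3cl1 had 23 UMIs in Cd209-positive macrophages and 4 in Cd209-negative ones, under 1 CPM in each.

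**Figure D3:**
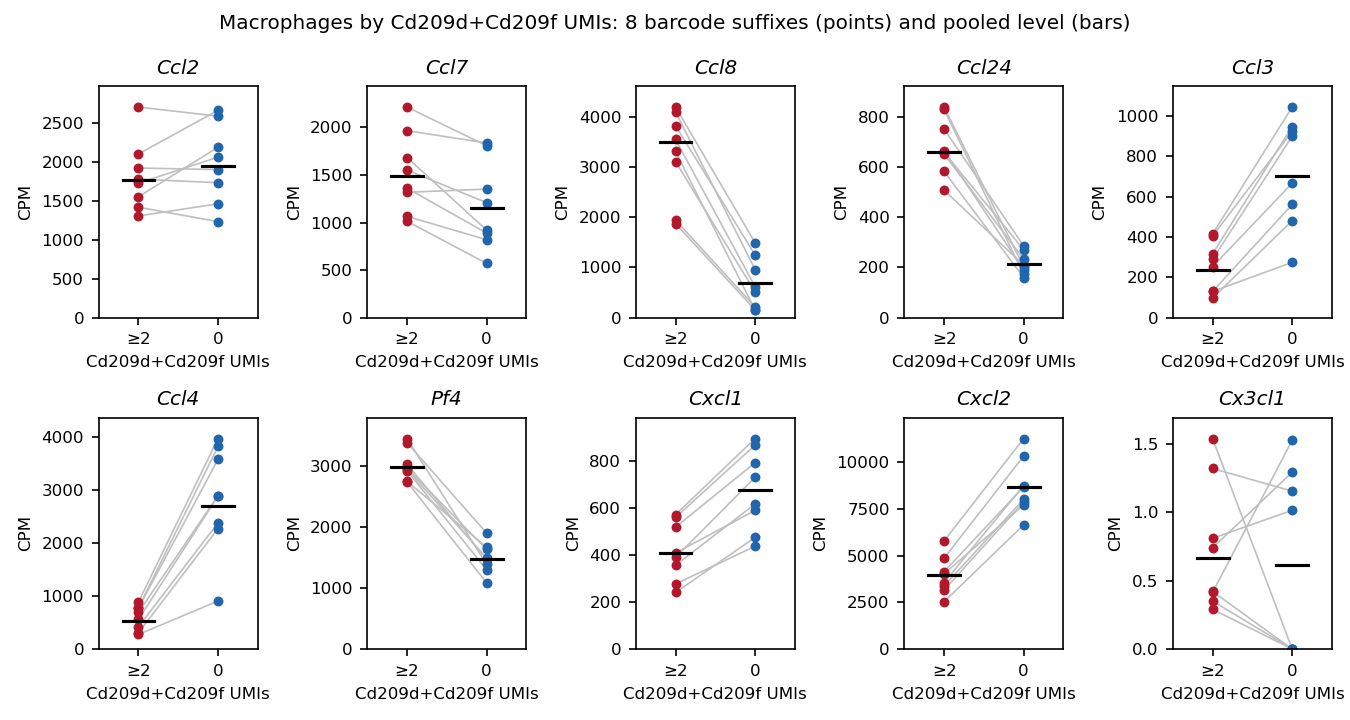
Chemokine level (y axis, CPM, from 0) in macrophages with at least 2 Cd209d+Cd209f UMIs (left, red) and with 0 (right, blue), 1 panel per gene; points are the 8 barcode suffixes, grey lines join a suffix and black bars are the pooled levels. Ccl8, Ccl24 and Pf4 are higher on the left in every suffix, and Ccl3, Ccl4, Cxcl1 and Cxcl2 are lower on the left in every suffix.

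Cell type markers moved with this split. All 8 macrophage markers were higher in the Cd209-positive class, at a sum of 8435 CPM (8255 to 8717 over suffixes), against 5300 CPM (4719 to 5956) in the Cd209-negative class. The 8 monocyte markers summed to 87.5 CPM in Cd209-positive macrophages (51.3 to 166 over suffixes) and to 482 CPM in Cd209-negative ones (329 to 719), and 2 of the 8 were higher in the Cd209-positive class. The largest of the 8 was Ccr2, at 44.6 against 438 CPM, and none of the 8 was at 0 in either class. The 10 dendritic cell markers summed to 195 and 106 CPM, with 3 of 10 higher in the Cd209-positive class. The part of these 3 lists in the result was not tested.

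Genes of neighbouring pathways were read for the same pair of classes. Of 8 genes of cytokines and inflammatory enzymes, 6 reached 10 CPM, and 5 of these were called lower in Cd209-positive macrophages. They were Il1b (26.9 against 587 CPM), Tnf (164 against 610 CPM), Il6, Il1a and the prostaglandin synthase gene Ptgs2. Il10 was not called, at 40.7 against 42.8 CPM. The median log2 ratio of the 6 was -2.66, beside 0.07 over all genes tested. Of 9 NF-κB feedback genes 1 was called lower, the ubiquitin-editing enzyme gene Tnfaip3 (283 against 667 CPM), and 0 were called higher. Of 18 immediate-early and stress genes, 0 were called in either direction, and they summed to 31265 CPM in Cd209-positive and 26073 CPM in Cd209-negative macrophages.

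The same cells often carried both genes of a genomic pair. In Cd209-positive macrophages thinned to 2000 UMIs, Ccl4 was detected in 51.9% of cells with Ccl3 and in 14.4% of cells without it. In Cd209-negative macrophages these shares were 80.8% and 37.4%. Ccl7 was detected in 73.5% of Cd209-positive macrophages with Ccl2 and in 41.9% of those without, and in 62.7% against 28.3% among Cd209-negative macrophages. Ccl8 went the other way with Ccl3: in Cd209-positive macrophages it was seen in 57.3% of cells with Ccl3 and in 72.6% of cells without.

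Some of these genes were spread over most macrophages and some were concentrated in few. The top 10% of Cd209-positive macrophages, ranked separately for each gene, held 84.2% of Ccl4 UMIs and 75.9% of Ccl3 UMIs. It held 50.4% of Ccl8, 39.3% of Cxcl2, 39.1% of Ccl2 and 34.8% of Ccl24 UMIs. In Cd209-negative macrophages the top 10% held 56.4% for Ccl4 and 56.6% for Ccl3, but 87.4% for Ccl8. Of thinned cells, 69.7% in the Cd209-positive and 25.2% in the Cd209-negative class had a Ccl8 UMI, beside 8.07% of B and T cells.

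Monocytes were few, and their values rest on 69 cells with 2 to 14 per suffix. The 8 macrophage markers summed to 1445 CPM in them (931 to 3328 over suffixes), with Mrc1 in 65.2% of cells, and to 7839 CPM in macrophages. The 8 monocyte markers summed to 2687 CPM in monocytes and 161 CPM in macrophages. Both lists set the monocyte gate, so these sums only describe the class. The part of these 2 lists in the comparison was not tested. The 6 neutrophil markers summed to 178 CPM in monocytes and 85.6 CPM in macrophages. Of these, S100a8, S100a9, Retnlg and Cxcr2 were at 0 in monocytes. In a clustering of the cells, gated monocytes were the most frequent class (32.7%) of a cluster of 171 cells that scored highest for neutrophil markers. Whether neutrophils are among the gated monocytes was not tested. Of 9 chemokines tested against macrophages, 1 was called higher in monocytes and 4 lower, against backgrounds of 10.4% and 16.0% of genes. Ccl8 (32.7 against 2943 CPM), Ccl24 (16.3 against 571), Pf4 (114 against 2689) and Ccl7 (271 against 1420) were lower in monocytes in 8 of 8 suffixes, and monocyte Ccl8 lay below its B and T cell level. Monocyte Pf4 was 69.4 CPM without suffix 4, where 1 cell held 29 of the 63 UMIs, and without that suffix the Ccl24 ratio of 0.0286 was 0.0181. Monocyte Ccl7 was 165 CPM without suffix 5, and monocyte Cxcl1 273 CPM without it and 427 CPM with it. Ccl3 was called higher in monocytes, at 819 CPM (745 to 898) against 327 CPM, but that order held in 4 of 8 suffixes and the call was lost without suffix 3 (ratio 1.92) or suffix 5 (ratio 1.95). Cxcl2 was nearly level, at 4652 CPM in monocytes and 4864 CPM in macrophages. Monocyte Ccl2, 921 CPM over all suffixes, was 611 CPM without suffix 5, and its ratio to macrophages of 0.513 passed the threshold downward without suffix 3 (0.468) or suffix 5 (0.334). Monocyte Ccl4 was 1603 CPM with that suffix and 1047 CPM without it.

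Dendritic cells, which carry antigen to lymph nodes through these vessels, held little RNA of most of these chemokines. All 9 tested were called lower in dendritic cells than in macrophages, against backgrounds of 21.5% of genes called lower and 13.3% called higher. Ccl4 came nearest, at 452 CPM (436 to 468) in dendritic cells and 935 CPM in macrophages, and its ratio of 0.483 was no longer under the threshold without suffix 2 or without suffix 4 (0.513). The 8 monocyte markers summed to 462 CPM in dendritic cells (305 to 728 over suffixes), where Chil3 was at 0, and to 161 CPM in macrophages (95.2 to 228), with 5 of 8 higher in dendritic cells, and their part in the result was not tested. Of the 3 marker-defined dendritic subsets, the 209 cells with Cd209a had the highest Ccl4, Ccl3 and Cxcl2 levels. Against the 260 cells with Clec9a or Xcr1, markers of cross-presenting dendritic cells, these levels were 867 against 192 CPM for Ccl4, 153 against 26.3 CPM for Ccl3 and 446 against 36.4 CPM for Cxcl2, each higher in 8 of 8 suffixes. The 147 cells with Ccr7, the receptor that leads dendritic cells into lymphatics, lay between at 414, 87.6 and 244 CPM and had Cx3cl1 at 14.1 CPM from 22 UMIs. The 41 dendritic cells with none of these markers held Ccl4 at 580 CPM, Ccl3 at 60.9 CPM and Cxcl2 at 2062 CPM (0 to 4457 over suffixes), above every subset for Cxcl2, where 1 cell held 132 of the 779 UMIs.

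Fibroblasts were the leading source of Cxcl1. Their 5 marker-defined subsets held 3212 CPM (Ngfr), 2955 CPM (Tcf21), 2888 CPM (Pi16), 2427 CPM (Col8a1) and 1609 CPM (Tspan11), and 78.3% of thinned fibroblasts had a Cxcl1 UMI against 14.3% of thinned B and T cells. Over suffixes the Ngfr subset ran from 2178 through 3132 to 4262 CPM, the Tcf21 subset from 2378 through 3134 to 3675 CPM and the Pi16 subset from 2089 through 2709 to 3852 CPM. These ranges overlap throughout, so the order of the 3 highest subsets was not distinguishable; under other settings the Pi16 or the Tcf21 subset came first. The Tspan11 subset was at 1117, 1643 and 2063 CPM and lay below the other fibroblasts in 8 of 8 suffixes (ratio 0.571, 0.559 to 0.583).

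Fibroblast Ccl2 and Ccl7 were also lowest in the Tspan11 subset. Ccl8 was instead highest there among the 5 subsets, at 170 CPM (83.3 to 323 over suffixes). The Ngfr subset followed at 135 CPM (39.9 to 330), so these ranges overlapped. The Col8a1, Pi16 and Ngfr subsets held Ccl2 at 1726, 1716 and 1695 CPM, the Tcf21 subset at 995 CPM and the Tspan11 subset at 468 CPM. Suffix ranges were wide, above all in the 275 cells of the Ngfr subset, where Ccl2 ran from 209 to 4035 CPM. Over the 5 subsets Ccl7 ranged from 896 CPM (Tspan11) to 1359 CPM (Pi16). The 2413 fibroblasts with no subset marker and the 1029 with a mixture held Ccl7 at 1396 and 1150 CPM, Ccl2 at 1093 and 1398 CPM and Cxcl1 at 2856 and 2626 CPM. In Pi16 fibroblasts, Ccl7 was detected in 66.8% of thinned cells with Ccl2 and in 34.9% of those without, much as in macrophages. The top 10% of Pi16 fibroblasts held 56.4% of Ccl2 UMIs, 51.5% of Ccl7 UMIs and 33.4% of Cxcl1 UMIs.

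Each subset was set against all other fibroblasts, with 7 chemokines tested. The Tspan11 subset had 2 called lower, Ccl2 (ratio 0.319, 0.306 to 0.332) and Cxcl2 (ratio 0.461, 0.429 to 0.494), beside 6.18% of genes called lower and 2.80% called higher. Ccl2 was lower there in 8 of 8 suffixes, while Cxcl2 was lower in 7 of 8 and its ratio was 0.522 and not called without suffix 5. The Tcf21 subset had 1 called lower, Ccl8 (49.6 against 103 CPM), beside 3.86% of genes called lower and 3.79% called higher, and that call was lost without any of suffixes 1, 2, 3 or 4 (ratios 0.520 to 0.531). The Pi16, Ngfr and Col8a1 subsets had 0 called in either direction, beside 1.53%, 2.68% and 1.74% of genes called higher and 3.30%, 3.94% and 1.73% called lower; without suffix 1, Ccl8 in the Col8a1 subset was called lower (ratio 0.445). Fibroblast levels of Ccl3, Ccl4, Ccl24 and Pf4 lay at or under the B and T cell level, with ratios to it of 0.53, 0.35, 0.99 and 0.79.

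Mural cells wrap the vessels, and collecting lymphatics pump by means of their muscle. Of 7 chemokines tested against fibroblasts, 5 were called lower in mural cells and 0 higher, beside 14.1% and 15.9% of genes: Ccl2 (383 against 1417 CPM), Ccl7 (255 against 1272 CPM), Ccl8 (33.4 against 98.8 CPM), Cxcl1 (1333 against 2755 CPM) and Cxcl2 (76.9 against 329 CPM). All 5 were lower in 8 of 8 suffixes. The Cxcl1 ratio of 0.484 (0.477 to 0.491) was at the threshold and was not called without suffix 3 or suffix 5 (0.505 without suffix 5). Mural Ccl8 lay under its B and T cell level.

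Cells of the pericyte class held more Ccl2 and Ccl7 than smooth muscle cells. The class carried muscle genes too, with Myh11 in 97.6% of its cells (4235 CPM) and Cnn1 in 87.2% (1202 CPM). Both are among the markers of the mural gate that these cells had to pass, so these values describe the class. It can thus include muscle cells with pericyte markers, and is not read as pericytes of small blood vessels alone. Of 6 tested, 2 were called higher in pericytes and 0 lower, beside 5.39% and 4.26% of genes. Ccl2 was at 571 CPM in pericytes and 157 CPM in smooth muscle (ratio 3.63, 3.34 to 3.95), and Ccl7 at 345 and 149 CPM (ratio 2.32, 2.12 to 2.55). Cxcl1 was at 1734 CPM in pericytes and 925 CPM in smooth muscle, a ratio of 1.87 (1.81 to 1.95) that missed the threshold. All 3 were higher in pericytes in 8 of 8 suffixes. The 8 fibroblast markers summed to 1259 CPM in pericytes (913 to 1777 over suffixes) and 594 CPM in smooth muscle (448 to 842), against 21233 CPM in fibroblasts, and their part in the result was not tested.

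The endothelium of the collecting vessels itself was close to or under the B and T cell level for nearly all of these genes. Its cells were deeper, with a median of 9551 UMIs beside 4736 in B and T cells. The levels were not corrected for this, so whether its cells hold Ccl2, Ccl7 or Cxcl1 above free RNA was not tested. In 449 collecting lymphatic endothelial cells, the ratios to the B and T cell level were 1.07 for Ccl2, 1.14 for Ccl7, 0.82 for Cxcl1, 0.51 for Ccl8, 0.53 for Pf4, 0.49 for Ccl3, 0.29 for Ccl4 and 0.96 for Ccl24. Cx3cl1 lay above it, at 5.55 CPM (3.97 to 7.56) from 40 UMIs, beside 0 UMIs and a limit of 0.907 CPM in B and T cells. Cxcl2 also lay above it, at 83.6 CPM and a ratio of 1.76 (1.47 to 2.11). That excess rested on suffix 8, where 1 cell held 260 of the 602 UMIs of the class, and without that suffix Cxcl2 was at 49.2 CPM, beside 47.5 CPM in B and T cells.

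Blood endothelium differed from lymphatic endothelium in Cxcl1 and Cx3cl1. Cxcl1 was at 94.1 CPM in lymphatic and 559 CPM in blood endothelial cells (ratio 0.168, 0.153 to 0.185), and Cx3cl1 at 5.38 and 46.5 CPM (ratio 0.116, 0.0789 to 0.168). Both were lower in lymphatic endothelium in 8 of 8 suffixes; blood endothelial Cxcl1 ran from 343 to 722 CPM and Cx3cl1 from 19.7 to 66.9 CPM. With Ccl4, 3 of 8 genes tested were called lower and 0 higher, beside 12.4% and 9.66% of genes. Ccl4 was low (11.5 against 25.8 CPM), and without suffix 1 its ratio was 1.09 and it lay under the B and T cell level in both classes. Blood endothelial Ccl7, at 73.3 CPM, was 36.4 CPM without suffix 8, where 1 cell held 49 of its 142 UMIs, and without that suffix Cxcl2 too was called lower in lymphatic cells (ratio 0.489). Ccl7 was the higher in lymphatic cells in 7 of 8 suffixes although its pooled ratio was 0.663. Pf4, at a ratio of 0.548, was called lower without suffix 2 (0.485) or suffix 6 (0.487).

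The 8 mural markers summed to 56.5 CPM in lymphatic endothelium (37.7 to 90.3 over suffixes) and 771 CPM in blood endothelium (457 to 1109), against 29219 CPM in mural cells. The 8 monocyte markers summed to 14.7 CPM in lymphatic (4.65 to 26.0) and 146 CPM in blood endothelium (54.3 to 261), with Ly6c2, Chil3 and Ms4a4c at 0 in both. The 8 fibroblast markers summed to 237 CPM in lymphatic (186 to 440) and 401 CPM in blood endothelium (158 to 1016). The part of these lists in the differences was not tested. Only 64 cells passed as lymphatic capillary endothelium. Of 8 chemokines tested, 5 were called higher there than in collecting endothelium, and 0 lower, beside 9.32% and 6.67% of genes: Ccl2, Ccl3, Ccl4, Cxcl1 and Pf4. Each of these calls was lost when 1 suffix was left out, suffix 2 for Ccl2 (ratio 1.39), Ccl3 (0.316), Ccl4 (0.283) and Pf4 (1.69), and suffix 5 for Cxcl1 (1.28), while Ccl7 (ratio 1.91) became called higher without suffix 1, 4, 6 or 8, so no capillary excess can be read from these cells.

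Mesothelial cells, which line the serous surfaces that the mesenteric vessels run beneath, held Cxcl1 at 1052 CPM (1033 to 1072). Over suffixes this ran from 328 through 788 to 2426 CPM, a wider spread than in any fibroblast subset. Of 7 chemokines tested, 4 were called lower than in fibroblasts and 0 higher, beside 12.4% and 14.6% of genes: Ccl2 (134 against 1417 CPM), Ccl7 (52.4 against 1272 CPM), Ccl8 (31.2 against 98.8 CPM) and Cxcl1 (1052 against 2755 CPM). Ccl8 was lower in 7 of 8 suffixes and the other 3 in 8 of 8. Ccl4, at background in both classes, was also called lower without suffix 7 (0.496) or suffix 8 (0.499). Cxcl2 was close in the 2 classes, at 257 and 329 CPM (ratio 0.782, 0.752 to 0.813).

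Immediate-early genes, which are known to respond to tissue dissociation, were high in stromal cells and macrophages. The 18 listed summed to 47712 CPM in mesothelial cells, 35912 CPM in fibroblasts, 29593 CPM in mural cells and 30465 CPM in macrophages, against 13144 CPM in monocytes, 11520 CPM in dendritic cells and 5179 CPM in B and T cells. The part of this difference in the comparisons of monocytes and dendritic cells with macrophages was not tested. Cells of each class were thinned to 2000 UMIs and parted in 3 bins of this sum. From the low through the middle to the high bin, mesothelial Cxcl1 was at 352, 890 and 1973 CPM, and Pi16 fibroblast Cxcl1 at 1729, 3132 and 3852 CPM. Dendritic cell Ccl4 was at 170, 420 and 787 CPM, while macrophage Ccl2 in the Cd209-positive class was flat at 1856, 1677 and 1762 CPM.

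Ccl8, Ccl24 and Pf4 ran in opposite directions over the bins of the 2 macrophage classes. From the low to the high bin Ccl8 was at 4132, 3531 and 2710 CPM in Cd209-positive macrophages and at 374, 790 and 1025 CPM in Cd209-negative ones. Ccl24 was at 710, 654 and 597 against 134, 249 and 274 CPM, and Pf4 at 3375, 2948 and 2560 against 1152, 1570 and 1851 CPM. Each was higher in Cd209-positive macrophages in all 3 bins. Depth differed over the bins, with median UMIs of 7860 in the low and 6717 in the high bin of the Cd209-positive class, and 8380 and 6018 in the Cd209-negative class. Ccl4, at 685, 366 and 522 CPM in Cd209-positive and 2596, 2445 and 3287 CPM in Cd209-negative macrophages, was lower in Cd209-positive ones in all 3. Cells taken at other stages of handling were not analysed here, so how much of any level arose during dissociation was not tested.

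Outside these classes, mast cells held the highest Ccl2 and Ccl7 of any class. In 245 mast cells of low depth (median 1210 UMIs) Ccl2 was at 3150 CPM (2984 to 3323) and Ccl7 at 2703 CPM (2549 to 2863), against 1794 and 1420 CPM in all macrophages. Over suffixes mast cell Ccl2 ran from 1362 through 3040 to 4968 CPM and Ccl7 from 540 through 2729 to 4724 CPM, and each was above macrophages in 6 of 8 suffixes.

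Among innate lymphoid cells, the type 2 class held Cxcl2, and natural killer cells held Ccl4 and Ccl3. Cxcl2 was at 1506 CPM (1458 to 1556) in 401 type 2 innate lymphoid cells, between 616 and 2293 CPM over suffixes, beside 47.5 CPM in B and T cells. Ccl4 was at 991 CPM (890 to 1100) in 75 natural killer cells, from 278 through 624 to 3193 CPM over suffixes. Ccl3 was at 136 CPM there, from 0 to 308 CPM over suffixes. The monocyte range for Ccl4, 86.7 to 4341 CPM, contained that of natural killer cells, so these neighbours did not differ beyond their spread.

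Cx3cl1 had a pattern unlike the other 9 genes. It was highest in 148 epithelial cells, at 91.7 CPM (78.9 to 106), followed by 92 endothelial cells not resolved as blood or lymphatic at 54.3 CPM, blood endothelium at 46.5 CPM (37.4 to 57.1), Ccr7 dendritic cells at 14.1 CPM and mesothelial cells at 9.61 CPM. Over suffixes the epithelial value ran from 0 through 20.6 to 112 CPM. The smallest number of epithelial cells in a suffix was 0, and an empty suffix is counted as 0 CPM. The lowest value and the median can thus be too low. The blood endothelial range was 19.7 to 66.9 CPM. Whether these neighbours in the order differ beyond their spread cannot be read from these values.

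The likeness of the genes over the 25 classes of at least 50 cells was measured by Pearson's r of log2(CPM + 1). The closest pairs were Ccl24 and Pf4 (r = 0.98), Ccl3 and Ccl4 (r = 0.96) and Ccl2 and Ccl7 (r = 0.96). Among all genes, those most like Pf4 were C1qa, a complement subunit (r = 0.98), Ccl24 and C1qc, and those most like Cxcl1 were Irf1, an interferon-response factor (r = 0.93), Ecm1 and Ddr2. Ccl8 was most like C6 and Pla2g2d (r = 0.89 each), Ccl4 like Ccl3, Tyrobp and Itgam, and Cxcl2 like Rffl, Ifih1 and Csf1r. For Ccl2 the closest gene was Gm17268 (r = 0.97). The neighbours Cxcl1 and Cxcl2 reached r = 0.28, and Cxcl1 and Ccl4 r = -0.48. The classes share libraries, free RNA and depth, so these values describe the pattern and carry no p.

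Receptors for these ligands were found mainly on myeloid and innate lymphoid cells. Ccr2, the CCL2 receptor, was at 819 CPM in monocytes, where it is among the markers of the gate, 487 CPM in type 2 innate lymphoid cells, 455 CPM in natural killer cells and 374 CPM in Cd209a dendritic cells. In the macrophage pair, Cxcr3 was called higher in Cd209-positive cells (13.0 against 1.38 CPM), and Ccr2 (44.6 against 438 CPM) and Cx3cr1 (4.97 against 43.4 CPM) were called lower.

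The receptors for the neutrophil and eosinophil attractants were low in the larger classes. Cxcr2, the receptor of CXCL1 and CXCL2, and Ccr3, the receptor of CCL24, stayed under 3 CPM in every class of at least 50 cells, while the 18 gated neutrophils held Cxcr2, a marker of their gate, at 876 CPM from 33 UMIs. The atypical receptors, which bind chemokines without classical signalling, had other leading classes. Ackr1 was at 252 CPM in blood endothelium, where it is among the markers of the gate, 73.1 CPM in Pi16 fibroblasts and 7.08 CPM in collecting lymphatic endothelium, and Ackr2 at 83.4 CPM in lymphatic capillary endothelium, 20.4 CPM in Pi16 fibroblasts and 1.39 CPM in collecting lymphatic endothelium.

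Other chemokines from a list of 22 genes, of which 21 had a row, set these patterns in context. In the macrophage pair 11 were tested, 1 was called higher and 5 lower in Cd209-positive cells, with Cxcl10, an interferon-induced ligand, at 121 against 605 CPM. The CCL2-related gene Ccl12 was at 188 CPM in Cd209-positive and 252 CPM in Cd209-negative macrophages, and at 9.37 CPM or less in every gated class outside macrophages. Ccl11, another eosinophil attractant, was a fibroblast gene with 2366 CPM in the Tcf21 subset and 425 CPM in the Pi16 subset, and it was at 11.9 CPM in Cd209-positive macrophages, where Ccl24 was found.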

How the data were processed

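Single cells from pooled vessel tissue were measured by droplet sequencing, and the authors deposited 1 matrix of UMI counts per gene and barcode, not normalised. Cell Ranger 7.1.0, Seurat 4.3.0.1 and mm10 are named in the submitters' processing notes, without the role of each. The matrix held 24046 barcodes and 232753017 UMIs (median 8684.5 per barcode, 23828933 to 32467001 per suffix).

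Barcodes with under 500 UMIs, under 300 genes or over 15% mitochondrial UMIs were removed (380), then 806 doublets called from simulated pairs (3.41%), leaving 22860 cells. Each cell went to the class whose marker genes it carried most, with a clear margin over the next. Gate limits were set from marker counts before member levels per class were computed. Ratios carry exact conditional binomial intervals and shares Clopper-Pearson intervals, at 95%; a count of 3 is the floor for 0 UMIs. Named genes were the 10 members, the listed pathway genes, and the 3 genes most like each member in pattern. The calling step was tested on simulated data. Python 3.11.15, numpy 2.4.6, scipy 1.17.1, pandas 2.3.3 and scanpy 1.11.5 were used.

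The members and lists were chosen with earlier results of these data known. Alternatives changed the filters, gates, doublets, thinning, averaging and suffixes. The multiplexing oligo libraries were not used here. Values of 1 listed receptor gene are not reported here.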

Additional observations from a re-analysis of the deposited data

Results flagged for a closer look

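In 56 sets of 8 suffix values, 7 held a suffix far from the other 7. The rule flags about 1 in 20 by chance only for independent, normally distributed values. The sets share the same 8 suffixes and single cells can hold much of a count, so no excess over chance is read from these flags. The suffixes carry no label, and no cause was tested. Ccl7 in blood endothelium was at 342.9 CPM in suffix 8, against 27.13 to 57.98 CPM in the others, with 49 UMIs in 1 cell. Cxcl2 in collecting lymphatic endothelium was at 243.6 CPM in suffix 8, against 38.2 to 71.18 CPM, with 260 UMIs in 1 cell.

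Fibroblast subsets gave 3 of the 7. Ccl8 in the Col8a1 subset was at 289.5 CPM in suffix 1, against 16.47 to 52.44 CPM. Ccl2 in the Tspan11 subset was at 1228 CPM in suffix 7, against 154.7 to 530.4 CPM. Ccl7 in the Tcf21 subset was at 2565 CPM in suffix 5, against 709.1 to 1522 CPM.

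Ccl3 in dendritic cells was at 138.4 CPM in suffix 6, against 50.98 to 90.67 CPM. Cxcl2 in smooth muscle was lowest in suffix 4, at 16.3 CPM, against 63.32 to 90.9 CPM.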

How the results depend on the processing

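The counts of members called higher (3) and lower (3) in Cd209-positive macrophages, highest in macrophages (4) and highest in fibroblasts (1) stayed within 1.5 times of these values in all 19 alternatives run, of which the 8 that leave out a suffix were added after seeing the data. That margin is wide for counts this small, so the same genes need not have been called each time. Calls for Ccl8, Ccl24, Ccl3 and Ccl4 held in all 11 alternatives fixed at the outset, for Cxcl2 in 10 (log2 ratio -1.21 to -0.94) and for Pf4 in 6 (0.70 to 1.47). Of the 8 alternatives that leave out a suffix, the Pf4 call held in 5. The log2 ratio ran from 1.63 to 3.27 for Ccl8 and from -2.55 to -1.99 for Ccl4. Of 20 settings, the reported one included, Cxcl2 was highest in macrophages in 16 and in monocytes in 4, Ccl3 in monocytes in 18, Ccl4 in monocytes in 17 and Cx3cl1 in epithelium in 18. Mast cells led for Ccl2 and Ccl7 in all 20. No paired analysis was possible because the labels give no shared replicate numbers and no result comes from a test across samples; orders within suffixes are descriptions. Low counts limit Cx3cl1 in most classes, and the 69 monocytes and 64 capillary cells limit all members there.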
